A study of Mus musculus with 6 samples.

Results

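The genes described here encode enzymes, structural proteins and transporters of melanin synthesis in melanosomes, the pigment organelles of melanocytes. They also include a melanosomal receptor (Gpr143), a melanosomal membrane protein (Mlana) and a cation channel of melanocytes (Trpm1). They were chosen by name as 10 pigment genes of strial intermediate cells (Dct, Tyr, Tyrp1, Pmel, Mlana, Oca2, Slc45a2, Slc24a5, Gpr143 and Trpm1). Every probe set whose only gene symbol in the array's annotation was one of these was taken, which gave 17 of the 45037 probe sets tested and 9 of the 10 genes. Slc24a5 matched 0 probe sets by that rule, so its transcript was not analysed here. Its promoter window is counted below. Cochlear lateral wall, dissected from CBA/CaJ mice of both sexes, was profiled on 1-colour Affymetrix arrays, 1 sample per array, to ask which transcripts differ with age. The YoungAdult group held 3 samples from mice aged 1 to 3 months, and the OldAdult group held 3 samples from mice aged 1.5 years. All mice came from the submitters' own colony, kept where noise was low, and the labels name no treatment or engineered allele. The labels do not give the number of animals in a sample, so p-values measure the spread between these samples, which may be partly technical.

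The lateral wall of the cochlea carries the stria vascularis, which produces the endocochlear potential. Intermediate cells, the middle layer of the stria, are melanocytes of neural crest origin and hold melanin. Tyrosinase (Tyr) starts melanin synthesis from tyrosine, Dct and Tyrp1 act on later intermediates, Pmel forms the fibrils on which melanin is laid down, and Slc45a2, Oca2 and Slc24a5 are melanosomal transport proteins. In the GRCm38.p6 annotation, Tyr, Oca2 and Trpm1 lie on chromosome 7, Slc24a5 on 2, Tyrp1 on 4, Pmel on 10, Dct on 14, Slc45a2 on 15, Mlana on 19 and Gpr143 on X. The transcription factor MITF drives many of these genes through a short element named the M-box.

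Promoter letters are shown first because the members are known as targets of 1 factor, whose own transcript is described further on. RefSeq promoter windows of build GRCm38.p6, which is the C57BL/6J genome and not that of CBA/CaJ, were matched for 6 of the 10 genes in 7 windows of 300 bases, from 250 bases before to 50 after a transcription start. The M-box letters searched were TCATGTG, on both strands, and 5 of the 7 windows held them, where 3.77% of 32851 RefSeq windows of the same length did. The shorter core CATGTG, which lies inside the M-box, was in 7 of the 7 windows and in 14.2% of all windows. The E-box CACGTG, which differs from the core by 1 letter, was in 1 of the 7 windows and in 7.15% of all. The following stretches lie before the start on the gene's own strand, 5′ to 3′, with M-box letters of either strand in capitals.
Tyr: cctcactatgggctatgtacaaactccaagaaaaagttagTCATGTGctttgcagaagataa
Tyrp1: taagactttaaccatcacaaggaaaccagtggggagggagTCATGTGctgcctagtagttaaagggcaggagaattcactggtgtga
Trpm1: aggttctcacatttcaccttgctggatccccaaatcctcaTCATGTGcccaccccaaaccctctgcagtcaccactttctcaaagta
Dct: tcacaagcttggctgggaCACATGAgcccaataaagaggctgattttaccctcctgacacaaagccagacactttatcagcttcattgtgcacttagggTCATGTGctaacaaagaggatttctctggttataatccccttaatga
These stretches are chr7:87493513-87493574 on the minus strand for Tyr, chr4:80834126-80834212 on the plus strand for Tyrp1, chr7:64153653-64153739 on the plus strand for the first of 2 Trpm1 starts, and chr14:118052351-118052496 on the minus strand for Dct. The M-box began 22 bases before the start in Tyr, 47 in Tyrp1 and 142 in the first Trpm1 window, while Dct held 2 copies on opposite strands. The remaining window with an M-box, 13 bases before the start, was that of Slc24a5, whose transcript was not analysed here. A match of letters is a description of the reference sequence and not a measured binding site. Since the members were already known as targets of MITF, their share of M-box windows is not independent of that knowledge and was not tested.

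**Figure D1:**
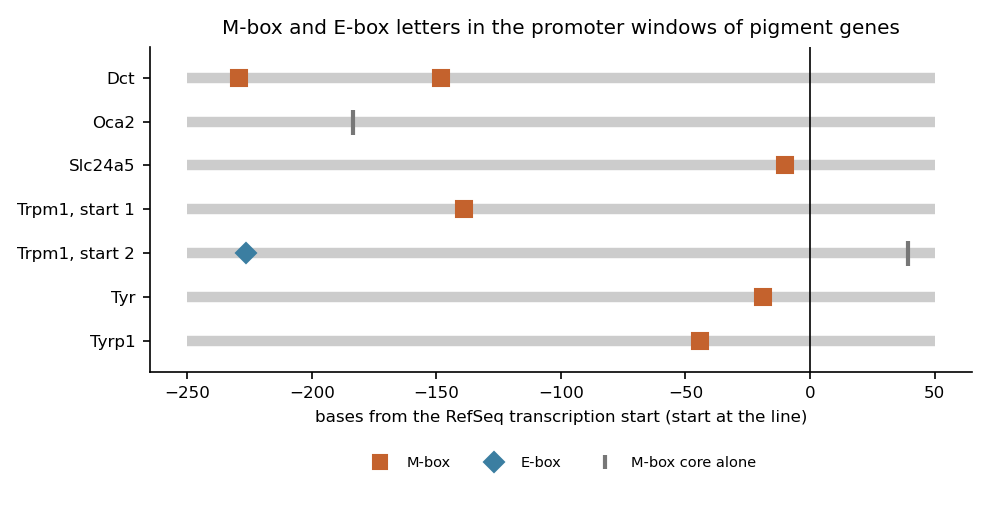
M-box, E-box and lone M-box core letters along the 7 promoter windows of 6 pigment genes (grey bars), with bases from the RefSeq transcription start on the x axis. Squares mark the M-box, present in 5 of the 7 windows, the diamond marks the E-box and the ticks mark a core without the M-box.

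Signals are on the log2 scale. Means carry the SD over the 3 arrays of an age, and differences, taken as old minus young, carry limma's standard error. A probe set was called when its Benjamini-Hochberg adjusted p from limma over all 45037 probe sets was under 0.05. The medians of the 6 arrays ran from 6.26 to 6.30. Young replicate 2 stood apart in its sex-linked RNA. Its Xist was 6.06 where the other arrays had 11.95 to 12.65, and its Eif2s3y was 10.46 where they had 8.97 to 9.71. The other arrays thus had high signals of both, as samples pooled from female and male animals would. So the sex mix differed between samples, and its part in the age differences was not tested. Pigment gene differences are therefore also given without young replicate 2, as are the list sums this array bounds and any call it changes. Called probe sets numbered 2119 in all, and 515 to 3393 with 1 array left out.

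Transcripts of several pigment genes were abundant at both ages, and the age differences were small. Of the 17 probe sets, 1 rose in old tissue, 0 fell and 16 did not pass, where 4.71% of all probe sets tested were called, 1.86% higher and 2.84% lower. The called probe set belongs to Tyr and was 1.39-fold higher. The groups did not overlap for 4 of the 17 probe sets (23.5%), where 23.8% of all probe sets did not, and an unadjusted limma p was under 0.05 for 4 of the 17, against 19.2% of all. Both shares, taken in either direction, lie near the background. All 4 non-overlapping probe sets were higher in old tissue, where 12.5% of all probe sets were non-overlapping and higher. The median difference over the 17 was 0.15, and 0.01 over all probe sets. Without young replicate 2, limma called 2 of the 17, where 7.53% of all probe sets were called, 8 of the 17 did not overlap against 38.1% of all, and the median was 0.14. In bulk tissue, fewer cells of a type and less RNA per cell cannot be told apart.

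The lateral wall samples held melanocyte RNA by their markers. Dct, Tyr, Mlana and Slc45a2, together with Kcnj10 and Kcnj13, potassium channels of the intermediate cells, lay above 8 log2 units on every array in every probe set named for them. In contrast, Tyrp1, Pmel and Oca2 lay below the median signal of all probe sets (6.28) on all 6 arrays, in each of their probe sets. Whether those low signals exceed background was not examined, as detection calls were not used here. The pigment genes thus fell into 9 probe sets of 6 genes above the median signal and 8 probe sets of 4 genes at or below it, with Trpm1 in both.

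Tyrosinase catalyses the rate-limiting step of melanin synthesis and was represented by 3 probe sets. The dimmest of them, 1448821_at, had signals of 8.26, 8.39 and 8.38 on the young arrays and 8.97, 8.65 and 8.85 on the old arrays. All old values lay above all young values, by at least 0.26. Its mean rose from 8.34 ± 0.07 to 8.82 ± 0.16, a difference of 0.48 ± 0.10 (limma adjusted p = 0.0340). That is a 1.39-fold level in old tissue, with a 95% confidence interval of 1.19 to 1.63.

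The call for this Tyr probe set depended on single arrays. The limma adjusted p rose to 0.0951 when young replicate 1 was left out and to 0.105 when young replicate 3 was. It rose to 0.0981 on omitting old replicate 1 and to 0.137 on omitting old replicate 3. With young replicate 2 omitted the difference was 0.50 and still passed (limma adjusted p = 0.0405), as it did on omitting old replicate 2 (limma adjusted p = 0.0319). The difference itself stayed between 0.41 and 0.57 in these 6 fits.

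The brighter Tyr probe sets also had higher old means but did not pass. Probe set 1456095_at read 11.10, 11.43 and 11.67 in young tissue and 11.68, 11.71 and 11.72 in old tissue. The groups were separated by only 0.01, young replicate 1 was far below the rest, and the 3 old arrays were nearly equal. Its difference was 0.30 ± 0.13 (limma adjusted p = 0.262), and it was 0.15 when young replicate 1 was omitted and 0.32 when young replicate 2 was. The brightest, 1417717_a_at, read 11.92, 12.15 and 12.16 in young tissue and 12.39, 12.20 and 12.16 in old tissue. Here young replicate 3 and old replicate 3 had the same value, and the difference was 0.17 ± 0.10 (limma adjusted p = 0.417), or 0.21 without young replicate 2. The confidence intervals of the 3 Tyr differences overlapped, and whether the probe sets differ from each other was not tested.

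Dct, the dopachrome tautomerase that acts after tyrosinase, had the same signal at both ages. It read 14.03, 14.06 and 14.10 on young arrays and 14.07, 14.09 and 14.04 on old arrays. Every array lay within 0.07 of the others, with an age difference of 0.00 ± 0.07 (95% interval -0.16 to 0.17, limma adjusted p = 0.990), also 0.00 without young replicate 2. The highest value in the whole table was 14.76, and whether the Dct signal is compressed near the top of the scale was not examined.

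Tyrp1, the third member of the tyrosinase family, was near the bottom of the scale in all 3 of its probe sets. The values ran from 3.74 to 4.25 in young tissue and from 3.44 to 4.33 in old tissue, and the groups overlapped in each. Differences were 0.13 ± 0.10 for 1415861_at, -0.18 ± 0.09 for 1439409_x_at and -0.26 ± 0.15 for 1415862_at, so the probe sets did not share a direction (limma adjusted p = 0.567, 0.352 and 0.393). They were 0.19, -0.25 and -0.36 without young replicate 2 and did not pass.

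Melanosomal structure and identity genes were higher in old tissue by amounts that did not pass. Mlana, a melanosomal membrane protein that is recognised by melanoma-reactive T cells as MART-1, read 11.16, 11.65 and 11.76 in young tissue and 11.83, 11.76 and 11.91 in old tissue. Young replicate 1 was the low value, and young replicate 3 equalled old replicate 2. The difference was 0.31 ± 0.15 (limma adjusted p = 0.304), with 0.13 on omitting young replicate 1 and 0.37 on omitting young replicate 2. Pmel, which builds the amyloid fibrils of the early melanosome, read 5.91, 5.90 and 6.11 in young and 6.20, 6.0 and 6.17 in old tissue. Its groups overlapped, with a difference of 0.15 ± 0.10 (limma adjusted p = 0.463), or 0.11 without young replicate 2.

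Gpr143, the ocular albinism receptor of the melanosome membrane and a gene of the X chromosome, was higher in 2 of 3 old arrays than in any young array. Its values were 8.70, 8.89 and 8.98 in young tissue and 9.26, 9.11 and 8.96 in old tissue. The groups overlapped by 0.02, and the difference was 0.25 ± 0.11 (limma adjusted p = 0.247). Without young replicate 2, the array with low Xist, it was 0.27 (limma adjusted p = 0.260).

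The melanosomal transporters differed little between the ages. Slc45a2, which helps set the pH of the melanosome, read 10.97, 11.08 and 11.07 in young and 11.29, 11.18 and 11.20 in old tissue at its brighter probe set, 1451055_at. The groups did not overlap and stood 0.10 apart, with a difference of 0.18 ± 0.08 (limma adjusted p = 0.247), or 0.20 without young replicate 2. Its other probe set, 1437430_at, read 10.06, 10.33 and 10.47 in young and 10.52, 10.31 and 10.37 in old tissue. These values overlapped, the difference was 0.11 ± 0.12 (limma adjusted p = 0.694), and it was 0.00 on leaving out young replicate 1 and 0.14 on leaving out young replicate 2. Oca2, the anion channel protein altered in pink-eyed dilution mice, ran from 5.20 to 5.43 in young and from 5.24 to 5.35 in old tissue, with a difference of -0.02 ± 0.09 (limma adjusted p = 0.933), or -0.09 without young replicate 2.

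Trpm1, a cation channel of melanocytes and retinal bipolar cells, had the second largest difference. Its brightest probe set, 1437445_at, read 6.22, 6.57 and 6.48 in young tissue and 6.97, 6.79 and 6.84 in old tissue. All old arrays exceeded all young arrays, by at least 0.22, yet the call was missed, with a difference of 0.44 ± 0.11 (limma adjusted p = 0.0550). Without young replicate 2 the difference was 0.52 and passed (limma adjusted p = 0.0332), and over all fits without 1 array the limma adjusted p ran up to 0.168. On all 6 arrays it also passed among probe sets above the median signal (limma adjusted p = 0.0398) and with array weights (0.39, limma adjusted p = 0.0252). It did not pass with a replicate block (limma adjusted p = 0.0897). Averaged over its probe sets, Trpm1 differed by 0.14 (limma adjusted p = 0.274). The other 3 Trpm1 probe sets lay below the median signal on every array, between 4.08 and 5.72, and differed by 0.15, 0.03 and -0.06, or 0.14, -0.02 and -0.08 without young replicate 2. None of the 3 passed (limma adjusted p = 0.410, 0.902 and 0.787).

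**Figure D2:**
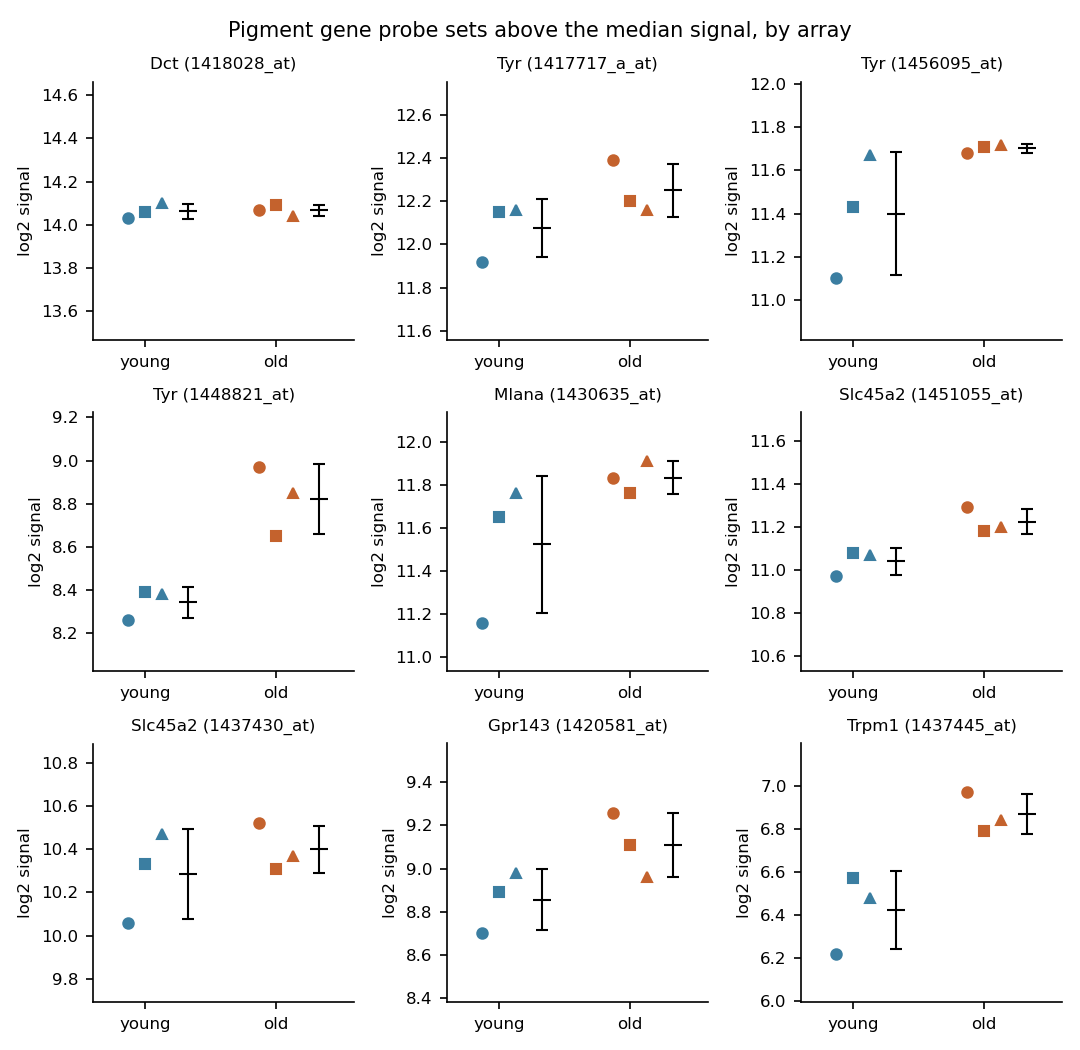
Log2 signal on each array for the 9 pigment gene probe sets above the median signal, young in blue and old in orange, with circles, squares and triangles for replicates 1, 2 and 3 and bars for the mean ± SD (n = 3). Each panel spans 1.2 log2 units. Young replicate 1 has the lowest value in all 9 panels, and the Tyr probe set 1448821_at and Trpm1 show the widest gaps between the ages.

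**Figure D3:**
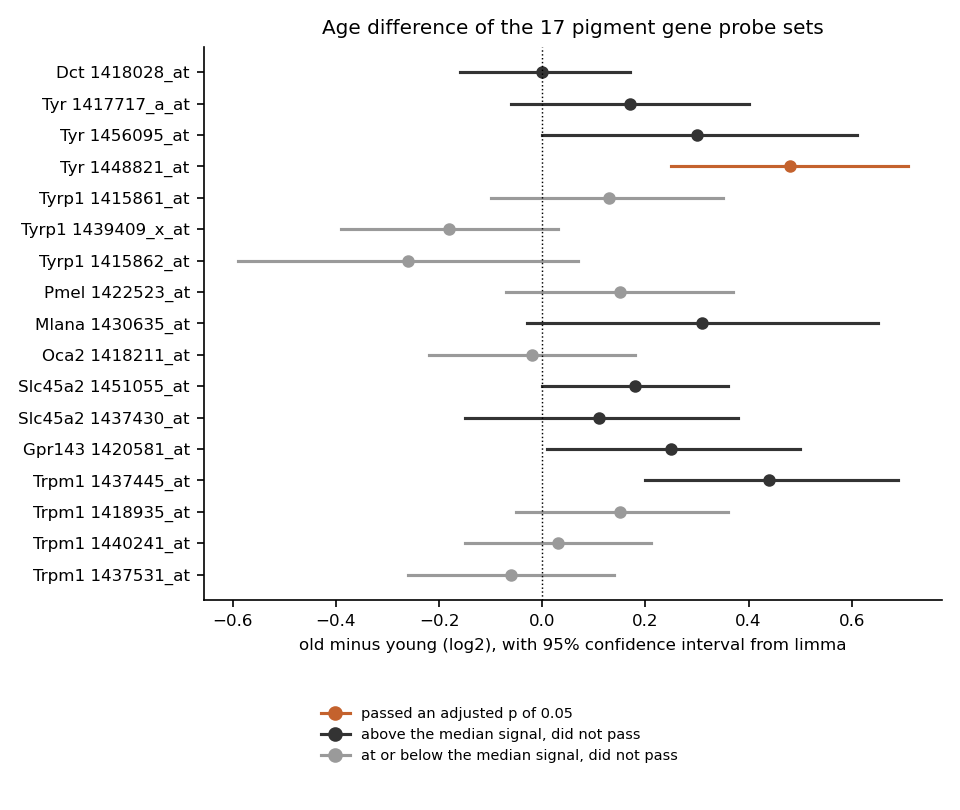
Old minus young difference of the 17 pigment gene probe sets on the log2 scale, with the 95% confidence interval from limma. The orange Tyr probe set, at 0.48, passed an adjusted p of 0.05, and the differences of the others run from -0.26 to 0.44.

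By signal level, the members fell into a brighter set with mostly positive differences and a dimmer set without a shared direction. Of the 9 probe sets above the median signal, 8 had a difference of at least 0.11 and Dct was at 0.00, with a median of 0.25, where the median was 0.03 over the 22509 probe sets above the median signal. Non-overlapping groups were seen in 4 of these 9, all higher in old, against 33.8% of all such probe sets in either direction and 19.0% higher. Of the 8 dimmer probe sets, 4 differences were positive and 4 negative, 0 had an unadjusted limma p under 0.05, and the median was 0.00. The medians were 0.27 in the brighter and -0.05 in the dimmer set without young replicate 2. Groups then did not overlap in 4 of the 9 brighter probe sets, where 50% of all such probe sets did not. In the dimmer set they did not overlap in 4 of the 8, against 26.1% of all dimmer probe sets.

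Within the young group, 1 array stood lowest across the brighter probe sets. Young replicate 1 had the lowest value of the 6 arrays in 9 of the 9 brighter probe sets, where this array was lowest in 32.2% of all probe sets above the median signal. Averaged over these 9 probe sets, after each was centred on its own mean, young arrays stood at -0.30, -0.07 and -0.01 and old arrays at 0.20, 0.07 and 0.10. Young replicates 2 and 3 thus lay closer to old replicates 2 and 3 than to young replicate 1. Without young replicate 1, the median difference over the 17 probe sets was 0.09.

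Summed linear signals of the 9 pigment genes, at the brightest probe set of each, were 25505, 27688 and 28478 in young tissue and 29583, 28716 and 28364 in old tissue, and the groups overlapped. Dct made up 58.1% to 65.6% of each sum. In a sum without Dct, chosen after seeing the data, the other 8 genes gave 8777, 10608 and 10918 in young and 12384, 11278 and 11519 in old tissue. Those values did not overlap, with young replicate 1 lowest, so the overlap of the full sums rested on Dct.

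Markers of other cells were measured on the same arrays, and their part in the pigment gene differences was not tested. Limma called 4 of 18 macrophage markers higher, 4 of 9 bone markers lower, and at most 2 genes in each of the other lists. Over all genes, at their brightest probe set, 4.78% were called, 2.45% higher and 2.33% lower. These shares stand beside the counts of every list below. The 10 measured marginal cell markers, genes of the strial layer that secretes potassium, summed to between 41630 and 43550 in young and between 44986 and 47469 in old tissue, with a median difference of 0.15, 0 called by limma and 4 with an unadjusted p under 0.05. Esrrb and Kcne1 had the smallest p among them, at 0.39 ± 0.12 and 0.33 ± 0.10 (limma adjusted p = 0.101 and 0.119). Both passed with an intensity trend and robust variance (limma adjusted p = 0.0477 and 0.0473). Neither passed with array weights (limma adjusted p = 0.107 and 0.135) or a replicate block (limma adjusted p = 0.152 and 0.155). Basal cell markers gave a median of 0.14 with 1 of 8 called higher, Sox8 (0.56 ± 0.13, limma adjusted p = 0.0469), whose call was lost, up to 0.179, without any 1 array other than young replicate 2.

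The 9 measured osteoblast and bone markers summed to between 9162 and 10879 in young and between 3307 and 4558 in old tissue, and the young range began at 10395 without young replicate 2. Young replicate 1, the array with the lowest pigment signals, had the highest bone sum. Of these 9, 4 fell, 0 rose and 5 did not pass, with a median of -1.20. Col1a2 of type I collagen (-2.69 ± 0.29, limma adjusted p = 0.00303), Phex (-2.08 ± 0.33, limma adjusted p = 0.0130) and Mepe (-1.41 ± 0.26, limma adjusted p = 0.0232) had the largest falls. The Phex call was lost without young replicate 3 (limma adjusted p = 0.0658) and the Mepe call without young replicate 3, old replicate 1 or old replicate 3 (up to 0.105). All 9 lay above the median signal. The 18 macrophage markers summed to between 7879 and 8856 in young and between 12406 and 13413 in old tissue, with a median of 0.23, and 4 rose and 0 fell. The highest young sum was 8770 without young replicate 2, and 5 then rose. Lyz2 (1.56 ± 0.15), Cd68 (1.16 ± 0.11) and Tyrobp (0.67 ± 0.09) rose most (limma adjusted p = 0.00209, 0.00230 and 0.00634), while Cd163, Itgam and Lyve1 lay below the median signal. Lyz2 can share probe signal with its near-identical copy Lyz1, so which of them changed is uncertain.

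The remaining marker lists showed fewer calls. Of 12 genes listed as fibrocyte markers, 1 rose, Otog (1.10 ± 0.25, limma adjusted p = 0.0470), and 0 fell. A positive difference was seen in 3 of the 12, with a median of -0.04. Otog encodes otogelin, a protein of the acellular membranes of the inner ear. It is therefore not a specific marker of fibrocytes, and the cells behind its rise were not tested. The Otog call was lost without any 1 array other than old replicate 1, up to 0.161, and under renewed quantile normalization and cyclic loess (limma adjusted p = 0.0503 and 0.0529). The 1 called fibrocyte marker without young replicate 2 was Col2a1, which was lower. Of 8 Schwann cell and myelin markers, Ncmap (-0.59 ± 0.11) and Pmp22 (-0.51 ± 0.10) fell, 0 rose and the median was 0.05 (limma adjusted p = 0.0257 and 0.0265). The Ncmap call was lost without young replicate 1, young replicate 3, old replicate 1 or old replicate 3 (up to 0.114), and that of Pmp22 without young replicate 1 or any old array (up to 0.120). Of 8 skin epithelium markers limma called 0, with 2 at an unadjusted p under 0.05, and 6 lay below the median signal. Krt14 and Krt1 had the smallest p there, with differences of 0.24 and 0.34 (limma adjusted p = 0.125 and 0.184).

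**Figure D4:**
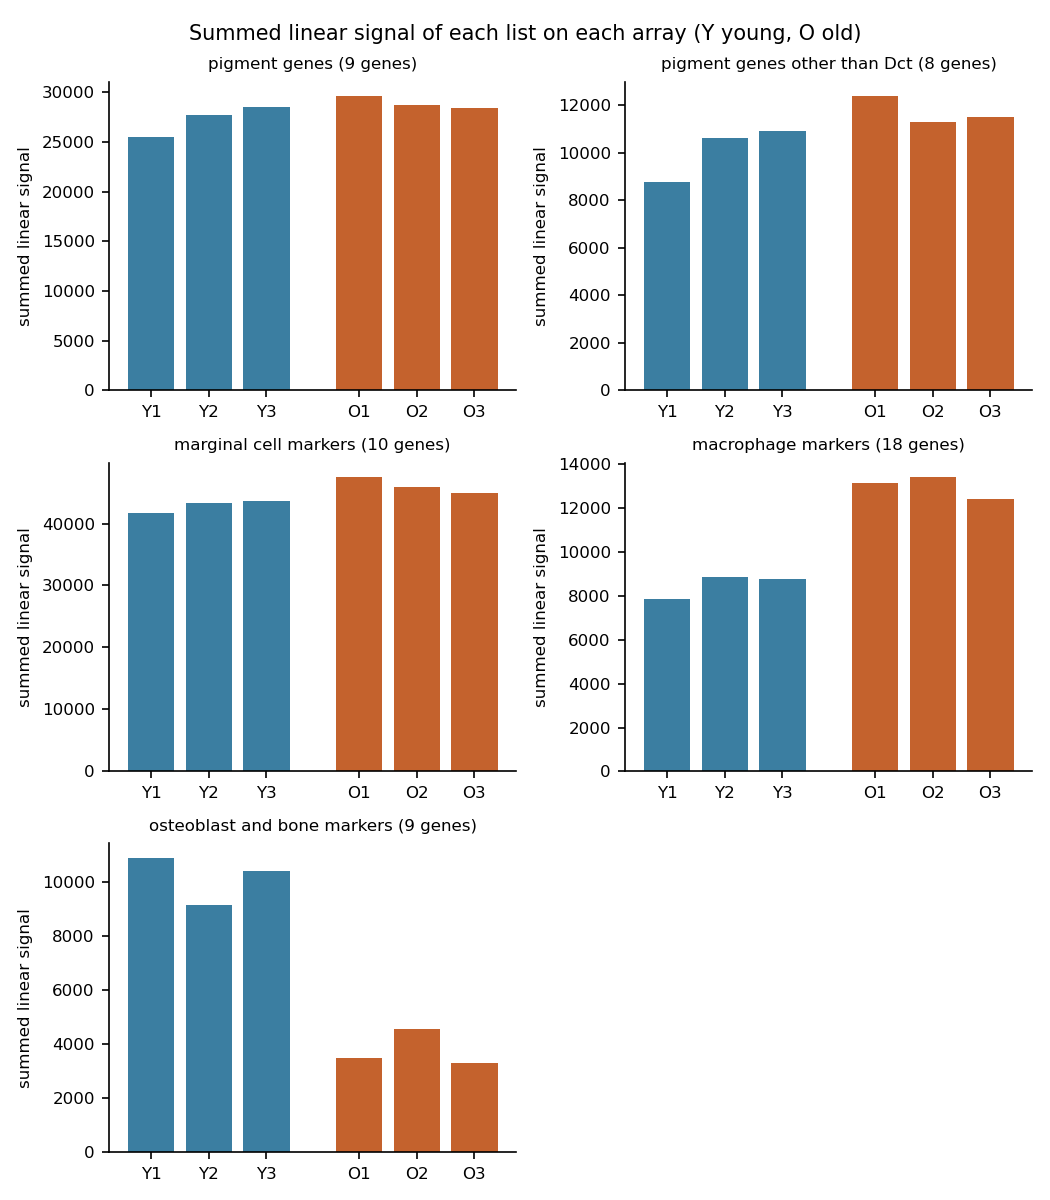
Summed linear signal of the pigment genes, of the pigment genes other than Dct and of 3 marker lists on each array, with young arrays (Y1 to Y3) in blue and old arrays (O1 to O3) in orange, each axis starting at 0. The sums of all 9 pigment genes overlap between the ages. The old arrays all exceed the young arrays in the sums of the other 8 pigment genes and of the marginal cell and macrophage markers, and all fall short of them in the bone sums.

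Regulators of the melanocyte lineage did not share 1 direction. Of 16 regulators and receptors measured, 1 rose, 1 fell and 14 did not pass, with a median of 0.07, where 4.78% of all genes were called by their brightest probe set, 2.45% higher and 2.33% lower. Mitf, the factor that binds the M-box, read 12.43, 12.16 and 12.43 in young and 12.13, 11.86 and 11.90 in old tissue. All old values lay below all young values, but the difference of -0.38 ± 0.11 did not pass (limma adjusted p = 0.0970). On all 6 arrays it passed with an intensity trend and robust variance (limma adjusted p = 0.0365) and with array weights (-0.45, limma adjusted p = 0.0210). It did not pass with a replicate block (limma adjusted p = 0.067). Without young replicate 2 it was -0.47 and passed (limma adjusted p = 0.0397), while without another array the limma adjusted p was up to 0.300. Its other probe set differed by -0.25 (limma adjusted p = 0.206). Which cells of the bulk tissue gave the Mitf signal was not tested.

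Sox10, the neural crest factor that activates Mitf and Dct, read 11.14, 11.33 and 11.19 in young and 11.58, 11.62 and 11.59 in old tissue. Its groups did not overlap and the difference was 0.38 ± 0.08 (limma adjusted p = 0.0382). Leaving out any 1 array except young replicate 2 raised the limma adjusted p above 0.05, up to 0.147, and its other 2 probe sets differed by 0.07 and 0.06 and did not pass. Sox10 is also made by Schwann cells, whose markers are given above.

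Ednrb, the endothelin receptor that melanocyte precursors need, fell in all 3 of its probe sets. The brightest read 11.55, 11.47 and 11.42 in young and 11.20, 11.11 and 11.06 in old tissue, without overlap (-0.36 ± 0.08, limma adjusted p = 0.0443). That call was lost without any 1 of the 6 arrays, with a limma adjusted p of 0.0568 to 0.191. Probe set 1423594_a_at had a mean of 7.45 in young and 6.44 in old tissue, a difference of -1.01 ± 0.09 (limma adjusted p = 0.00191, and 0.00361 to 0.0153 without 1 array). The third differed by -0.41 ± 0.08 (limma adjusted p = 0.0308, and 0.0400 to 0.132 without 1 array). Ednrb is expressed by endothelial and glial cells as well.

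Kit, the receptor for stem cell factor, read 10.95, 10.23 and 10.10 in young and 10.05, 10.06 and 10.43 in old tissue. Young replicate 1 was the high value and the groups overlapped, with a difference of -0.25 ± 0.21 (limma adjusted p = 0.621), or 0.02 without that array. The cells that gave the Kit signal were not tested either.

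Of the 2 intermediate cell channels, limma called 0, with 1 at an unadjusted p under 0.05. Kcnj10, whose current is needed for the endocochlear potential, read 12.67, 12.76 and 12.92 in young and 12.73, 12.78 and 12.77 in old tissue (-0.02 ± 0.09, limma adjusted p = 0.932). Kcnj13 read 11.18, 11.54 and 11.54 in young and 11.92, 11.75 and 11.67 in old tissue. Its groups did not overlap, young replicate 1 was lowest as for the brighter pigment genes, and the difference was 0.36 ± 0.12 (limma adjusted p = 0.138), or 0.42 without young replicate 2 (limma adjusted p = 0.105).

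**Figure D5:**
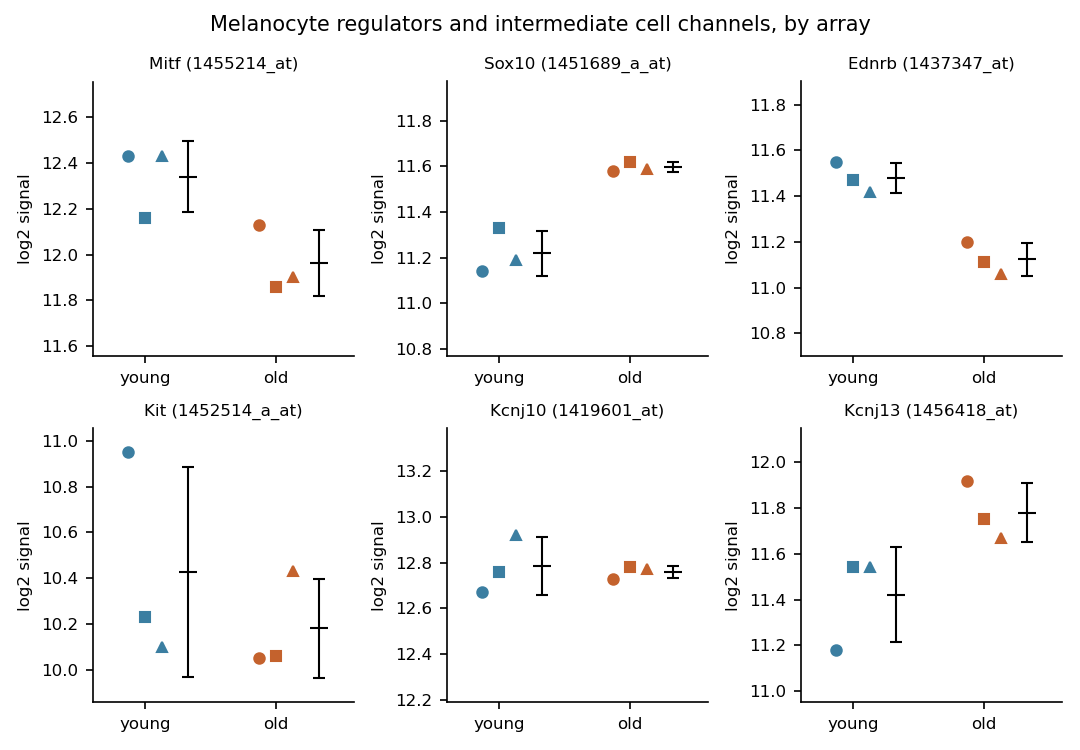
Log2 signal on each array for 4 melanocyte regulators or receptors and 2 intermediate cell channels, at the brightest probe set of each gene, young in blue and old in orange, with circles, squares and triangles for replicates 1, 2 and 3 and bars for the mean ± SD (n = 3). Mitf and Ednrb are lower and Sox10 and Kcnj13 higher in all 3 old samples than in the young ones, of which Sox10 and Ednrb passed an adjusted p of 0.05.

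Of 35 measured genes that sort proteins into melanosomes and move them along the cytoskeleton, 1 rose, 0 fell and 34 did not pass, where 4.78% of all 18193 genes were called. A positive difference was seen in 29 of the 35 and in 57.9% of all genes, with medians of 0.12 and 0.03. Summed over the list, the linear signal ran from 32172 to 35111 in young tissue and from 37770 to 38515 in old tissue, and the highest young sum was 34307 without young replicate 2. Without that array Rab38, a GTPase that helps bring cargo to melanosomes, was called as well. The called gene on all 6 arrays was Gpnmb, a glycoprotein of melanosomes that phagocytes also make, which read 11.55, 11.79 and 11.77 in young and 12.25, 12.05 and 12.32 in old tissue. Its groups did not overlap and the difference was 0.50 ± 0.10 (limma adjusted p = 0.0337). The call was lost without young replicate 1, young replicate 3, old replicate 1 or old replicate 3 (up to 0.144), and its other probe set differed by 0.07 (limma adjusted p = 0.852).

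Genes with the profile most like that of the pigment genes were sought over the 6 arrays. The mean centred profile of the 6 pigment genes above the median signal, at the brightest probe set of each, spanned 0.47 log2 units. Among 3427 other genes above the median signal with at least that span, the smallest root mean square differences from it were those of Rps19bp1 (0.0198), Pole4 (0.0249), Noc3l (0.0310), Ddx59 (0.0341) and Parp16 (0.0390), where the median gene differed by 0.217. Because these genes were picked by that likeness, their shared extremes and small differences largely follow from the choice. All 5 were lowest on young replicate 1 and highest on old replicate 1. None was called, with differences of 0.21 to 0.27.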

How the data were processed

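Total RNA was turned into labelled cRNA with a 3′ in vitro transcription kit, per the labels' protocols, so 3′ ends give most of the signal. The deposited table holds log2 signals for 45101 probe sets. RMA, MAS5 and Affymetrix Expression Console appear in the submitters' processing notes, and their versions and order were not given in the sources used here. Scaling between arrays removes any shift shared by most genes. Probe intensities and detection calls were not used here, so signal over background was not examined. The number of arrays, 3 per age, limits precision.

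The 64 control probe sets were left out. Symbols came from GEO's platform annotation, and only the 34945 probe sets with 1 symbol were named. The test was limma 3.58.1 in R 4.3.3 with age as the only term. It was run on simulated arrays with independent noise in each probe set and known changes larger than any pigment difference. Those arrays held no shifts shared by a whole array, so they cannot show how the test handles such shifts or smaller differences. A gene in a list was represented by its brightest probe set. Beyond the pigment genes, the text names from each list up to 3 called genes with the largest differences, or the 2 smallest p, plus Mitf, Sox10, Kit, Ednrb, Kcnj10, Kcnj13 and Gpnmb. Xist and Eif2s3y were chosen after their values were seen. Members and lists were chosen with earlier results of these data known, so they are not independent of them. Alternatives were 3 rescalings, a filter on dim probe sets, another variance model, array weights, a replicate block, averaged probe sets and a stricter threshold. Each array was also left out in turn, at the main threshold of 0.05. A pigment sum without Dct was added after seeing the data. Protein sequences were not used here.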

Additional observations from a re-analysis of the deposited data

How the results depend on the processing

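Called pigment probe sets numbered 1 in the reported fit and under quantile normalization, median centring, cyclic loess and an intensity trend with robust variance. The number was 2 among probe sets above the median signal and 2 with array weights, 0 at an adjusted p of 0.01, and 0 to 2 without 1 array. With the probe sets of a gene averaged, limma called 0 pigment genes and 2 had an unadjusted p under 0.05. The median difference was 0.09 to 0.25 over all settings and 0.09 to 0.20 without 1 array. Over all probe sets, 4480 were called with array weights, 436 at an adjusted p of 0.01, and 515 to 3393 without 1 array. Calls in the other lists numbered 15, with 5 at an adjusted p of 0.01 and 6 to 17 without 1 array. The cause of these shifts was not tested, apart from the stricter threshold, which can only lower a count. Differences near 0 changed sign. Dct was -0.02 with array weights and -0.01 to 0.02 without 1 array, and Tyrp1 was -0.10 averaged over its probe sets. Without 1 array, Oca2 ran from -0.09 to 0.03, Kit from -0.41 to 0.02 and Kcnj10 from -0.08 to 0.05. The dimmer Trpm1 probe sets 1440241_at and 1437531_at ran from -0.02 to 0.07 and from -0.10 to 0.01, and the former was -0.01 with array weights. Summing the pigment genes without Dct, chosen after seeing the data, put the lowest old sum above the highest young sum. The replicate numbers are shared by the ages. Deviations of same-numbered arrays correlated by 0.137, 0.075 and 0.008, and those of differently numbered arrays by -0.114 to 0.068. The first 2 values thus exceeded those of all differently numbered arrays, but all were weak, and the arrays were not taken as pairs. With the replicate block, 0 pigment probe sets were called in limma and 5 had an unadjusted p under 0.05, the Tyr probe set 1448821_at had an adjusted p of 0.0576 in limma, and 1932 probe sets were called in all. The block also ended the calls of Gpnmb, Sox10, Ednrb, Sox8 and Otog, with limma adjusted p of 0.0511 to 0.0565. Array number and dim signals limit what can be said of Tyrp1, Pmel and Oca2.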
